A study of Homo sapiens with 13 samples.

Results

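The 39 HOX cluster genes were followed in 2 small cell lung cancer (SCLC) lines, H82 and H146, that were left untreated or treated with FHD-286, an inhibitor of the SMARCA2 and SMARCA4 ATPases of the SWI/SNF (BAF) chromatin remodeling complex. Members were all genes of the HOXA, HOXB, HOXC and HOXD clusters, taken by symbol from the 56831 entries of each expression table. The 4 groups were untreated H82 (3 libraries), H82 treated with 100 nM FHD-286 for 14 days (3 libraries), untreated H146 (3 libraries) and H146 treated in the same way (4 libraries). Both lines were labelled wild type, the drug was renewed every 48 hours, and the controls were labelled as receiving no treatment, with no vehicle or time in culture given. Values were TPM (transcript abundances scaled to the same sum in every library), a level per transcript length, so levels could be compared between genes. No label says that replicates were separate cultures, so p-values measured the spread between these libraries, which may be technical. In bulk RNA, fewer cells with a transcript and less transcript per cell cannot be told apart.

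HOX genes encode homeodomain transcription factors that give cells along the body axis and the limb their positional identity. In each cluster the genes lie in the order in which they are used from head to tail: low paralog numbers are anterior and high numbers posterior. Polycomb and Trithorax group proteins hold them silent or active, and SWI/SNF complexes belong to the Trithorax group. PBX, MEIS and PKNOX proteins bind DNA with HOX proteins as cofactors. In GENCODE 44 (hg38), HOXA lies on the minus strand of chromosome 7, HOXB at chr17:48528526-48728750 on the minus strand, HOXC at chr12:53938831-54056030 on the plus strand and HOXD at chr2:176092721-176190907 on the plus strand.

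The labelled lines matched their defining markers. NEUROD1, the neuronal factor that names the SCLC-N subtype of H82, ranged from 224 to 234 TPM in untreated H82 and from 0.262 to 0.521 TPM in untreated H146. INSM1, a neuroendocrine transcription factor, was at 12.5 to 15.8 TPM in untreated H82 and 1140.4 to 1405 TPM in untreated H146. The blood marker CD3E was at or near 0 in every library of both lines. Summed over the mesenchymal markers, levels were 7.61 to 9.26 TPM in untreated and 49.8 to 76.1 TPM in treated H82, and 7.55 to 9.18 TPM and 18.4 to 33.7 TPM in H146, with 3 of 3 and 3 of 4 tested markers higher. The epithelial markers summed to 1353 to 1377 TPM in untreated H146 and 522 to 589 TPM in treated H146. There 3 of 4 tested were lower, and CDH1 was not called (log2 fold change 0.23). In H82 they went the other way, from 1.49 to 3.16 TPM untreated to 8.02 to 63.4 TPM treated, with 2 of 3 tested higher. Those 2, KRT8 and KRT18, could be tested only because their treated libraries reached 1 TPM. That also held for COL1A2 in H82, and for COL3A1 and VIM in H146. Of all genes tested, 13.1% were higher and 45.5% lower in H82, and 32.5% and 15.5% in H146. Mitochondrial transcripts took 22.1% to 24.1% of TPM in untreated H82 and 12.3% to 14.9% in treated H82, and 7.56% to 8.86% and 3.82% to 11.4% in H146. The part of these shifts in the results was not tested.

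The treated H82 libraries, and replicate 2 most of all, held transcripts of genes that marked the other line. Over 218 genes with at least 10 TPM in every untreated H146 library and under 0.1 TPM in every untreated H82 library, the summed level was 1.58 to 2.35 TPM in untreated H82, and 113, 547 and 54.7 TPM in treated replicates 1, 2 and 3. Those sums were 0.885%, 4.29% and 0.428% of the mean sum in untreated H146. EPCAM, an epithelial surface protein high in H146, reached 32.8 TPM in one treated H82 library against 1.65 TPM at most in untreated H82. Over 181 genes chosen the same way for H82, the treated H146 libraries reached 0.354% to 0.695% of the H82 sum. The main results that rest on treated H82 replicate 2 are therefore given with and without it, and the part of these transcripts in the results was not tested.

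Before treatment the lines used different clusters. In untreated H82 the HOXC cluster held 42.1% of all HOX TPM, HOXA 33.7%, HOXD 19.7% and HOXB 4.46%. In untreated H146 the HOXD cluster held 63.7% and HOXB 30.3%, against 6.0% for HOXA and 0.0383% for HOXC. The most abundant members in untreated H82 were HOXC4 (22.1 ± 0.346 TPM, SD, n = 3), HOXA13 (17.5 ± 2.35 TPM) and HOXC8 (14.4 ± 0.414 TPM), and the libraries of neighbors in that order did not overlap. In untreated H146 they were HOXD13 (86.2 ± 16.2 TPM), HOXD10 (70.6 ± 9.13 TPM) and HOXB7 (63.2 ± 5.94 TPM). There HOXD13 overlapped with HOXD10 and HOXD10 with HOXB7, while HOXB7 lay above HOXD11, the next in order. HOXC genes were part of the H82 profile and did not exceed 0.363 TPM in any H146 library. These levels stand side by side without a test between lines.

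**Figure D1:**
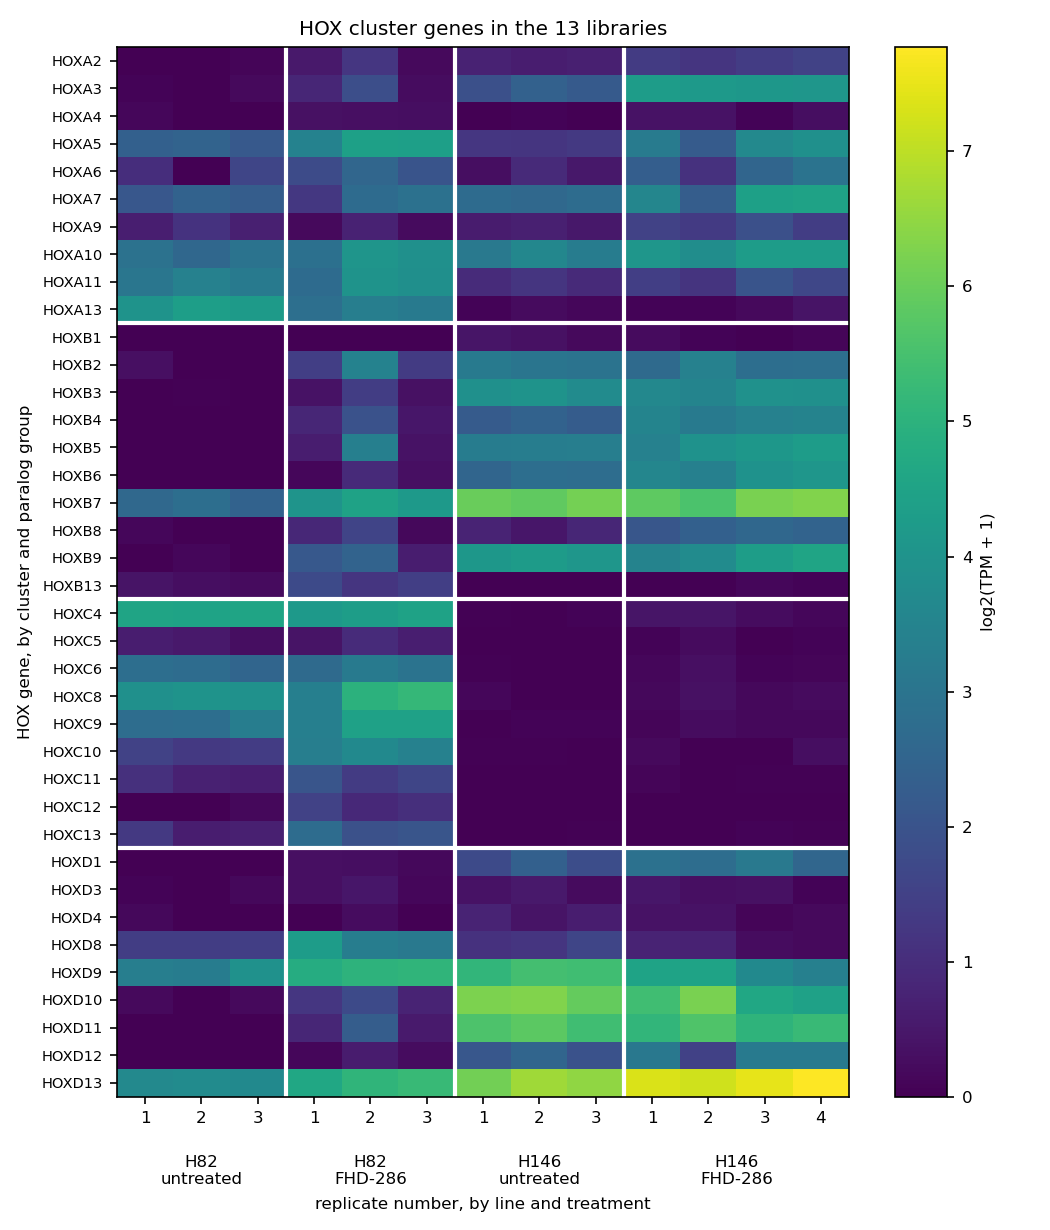
Heat map of log2(TPM + 1) for 38 HOX genes (rows, by cluster and paralog group) in the 13 libraries (columns, by line and treatment). HOXC genes are visible only in H82, HOXD10 and HOXD11 are highest in H146, and HOXD13 is brightest in treated H146 (mean 176 TPM).

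After FHD-286, HOX transcripts in H82 rose against a general fall. A gene was tested in a line when at least 3 of its libraries reached 1 TPM, and was called at a limma adjusted p under 0.05, with the adjustment over all genes tested. By this rule 12 of the 19 HOX genes tested in H82 were higher (63.2%), where 13.1% of all genes tested were higher, and 1 was lower, where 45.5% of all genes were lower. Without treated replicate 2, 10 were higher and 1 lower. Among the 17 tested members that had an untreated library at 1 TPM, 10 were higher (58.8%). The median log2 fold change was 1.15 over the tested HOX genes and -0.56 over all genes tested. In H146, 13 of 24 tested HOX genes were higher (54.2%) and 2 were lower, against 32.5% and 15.5% of all genes tested, and without treated replicate 2 the counts were 16 and 4. Among the 20 with an untreated library at 1 TPM, 9 were higher. There the median log2 fold change was 0.73 over the HOX genes and 0.25 over all genes tested. Scaling by the median of ratios moved the all-gene median to -0.14 in H82 and -0.02 in H146. With it, 14 of 19 HOX genes and 4793 of 19770 genes tested were higher in H82. In H146, 12 of 24 HOX genes and 4165 of 19585 genes tested were. As a share of all genes called, and not of those tested, higher ones were then 42.4% in place of 22.3% in H82, and 45.9% in place of 67.7% in H146. No called HOX gene changed direction under that scaling or under quantile normalization, although in H146 the number called lower became 5, with HOXB3, HOXD10 and HOXD11 added.

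The filter shaped these counts. In H82, HOXB2 and HOXB13 entered the test only through treated libraries, as did HOXA2, HOXA6, HOXA9 and HOXB8 in H146, so these 6 could be tested because they were high after treatment. HOXD8 entered in H146 only through untreated libraries. Under the filter stood 20 members in H82 and 15 in H146. In all, 23 members were called in at least one line. Of the 18 called in 1 line only, 15 were not tested in the other. Among the 10 members tested in both lines, 5 were called in both and 3 in one, where 24.7% of the 15679 genes of all kinds tested in both were called in both. HOXA5, HOXA6 and HOXD13 were higher in both, and HOXD8 and HOXD9 were higher in H82 and lower in H146.

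**Figure D2:**
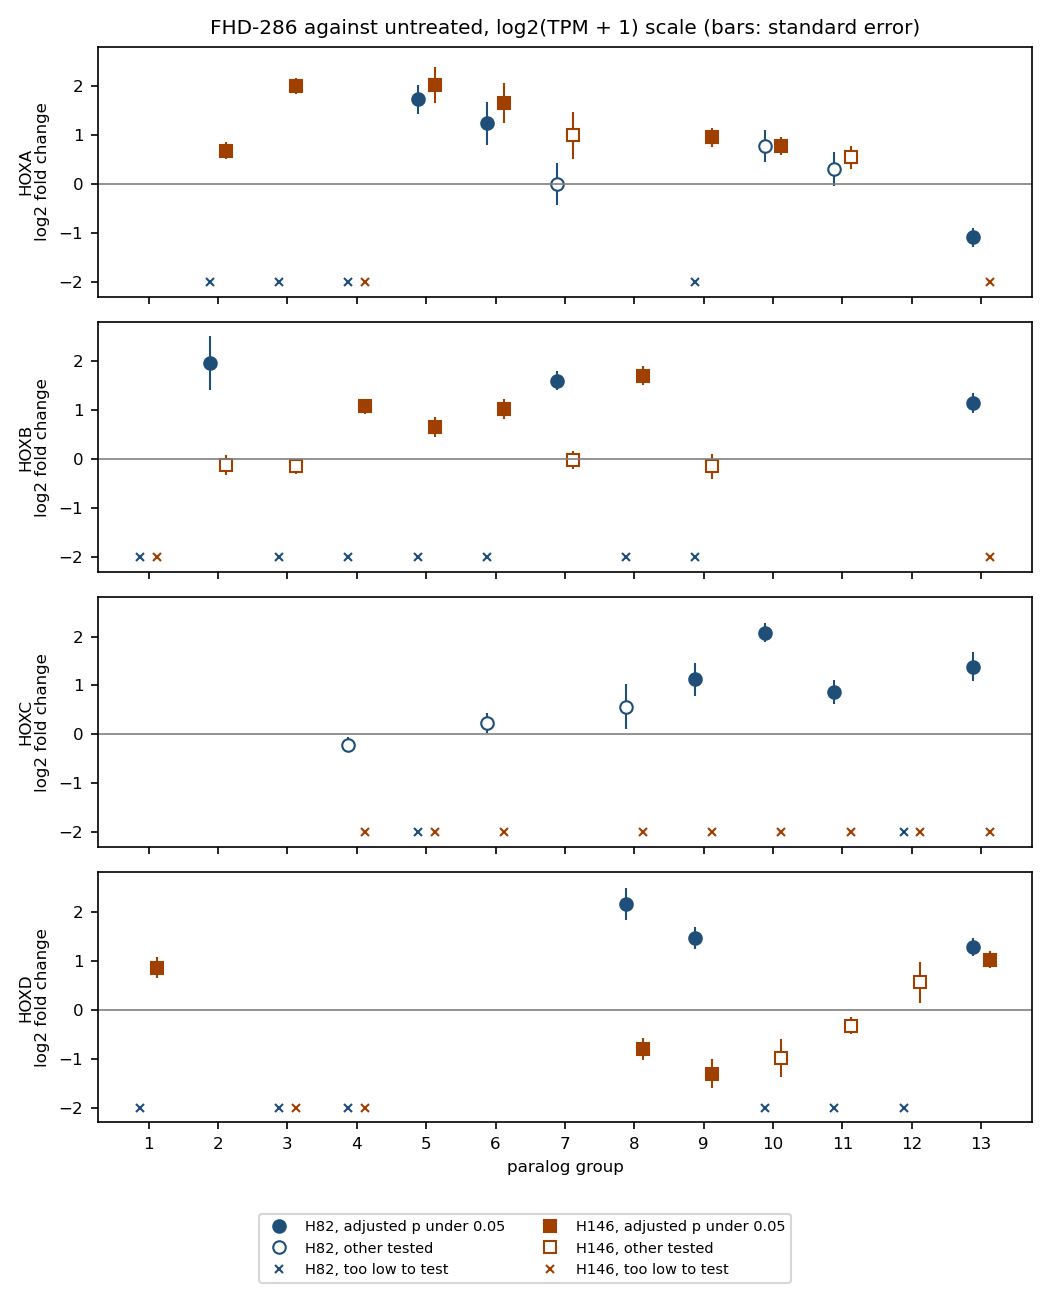
Log2 fold change of treated against untreated on the log2(TPM + 1) scale (vertical axis) for 38 HOX genes by paralog group (horizontal axis), with standard errors, in H82 (circles) and H146 (squares), one panel per cluster; filled symbols have an adjusted p under 0.05 and crosses at the lower edge mark genes too low to test. In the HOXD panel the H82 values for groups 8 and 9 lie above 0 and those of H146 below it, while group 13 is above 0 in both.

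HOXD held the only HOX genes called in opposite directions in the lines, HOXD8 and HOXD9. A difference in the treatment effect between the lines was also called for genes of the other clusters. HOXD8 (chr2:176129694-176132695, plus strand), a homeodomain factor of the trunk, was at 1.68, 1.68 and 1.71 TPM in untreated H82 and at 18.9, 8.82 and 7.76 TPM in treated H82. All treated libraries stood above all untreated ones, and the log2 fold change was 2.15 (SE 0.33, adjusted p = 0.0015, limma). In H146 it was at 1.17, 1.28 and 2.06 TPM untreated and at 0.710, 0.689, 0.204 and 0.152 TPM treated. There every treated library was below every untreated one, with a log2 fold change of -0.81 (SE 0.23, adjusted p = 0.0201, limma). The HOXD8 call in H146 was lost without untreated replicate 3 (adjusted p = 0.0815) or treated replicate 3 (adjusted p = 0.0514). HOXD8 shares 24.4% of its exonic bases with the antisense gene HOXD-AS2, which also fell in H146, and without strand information their reads cannot be told apart.

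HOXD9 (chr2:176122719-176124937, plus strand), a posterior factor of limb and trunk that lies next to HOXD8, showed the same split at higher levels and shares no exonic base with another gene. Its level was 9.02, 8.6 and 14.3 TPM in untreated H82 against 27.1, 31.5 and 32.7 TPM in treated H82. In H146 it was 33.7, 42.9 and 41.3 TPM untreated against 21.9, 21.9, 11.8 and 9.37 TPM treated. Neither line's groups overlapped: the log2 fold change was 1.46 in H82 (SE 0.22, adjusted p = 0.00141, limma) and -1.30 in H146 (SE 0.29, adjusted p = 0.00737, limma). After treatment the H82 libraries were above those of H146, the reverse of the order before it.

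HOXD13 (chr2:176092721-176095944, plus strand), the last gene of the cluster, known for patterning the digits, rose in both lines. It was at 11.6, 12.5 and 12.0 TPM in untreated H82 and 23.9, 33.0 and 36.5 TPM in treated H82, a log2 fold change of 1.28 (SE 0.19, adjusted p = 0.00131, limma). In H146 it went from 68.7, 101 and 89.1 TPM to 160.3, 145.7, 178 and 218 TPM, a log2 fold change of 1.02 (SE 0.18, adjusted p = 0.00231, limma). The treated groups lay wholly above the untreated ones in each line, and HOXD13 became the most abundant HOX transcript of treated H82, with a range that overlapped that of HOXD9.

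Between HOXD9 and HOXD13 no gene was called in H146. In cluster order the log2 fold changes were -1.30 for HOXD9, -0.99 for HOXD10 (adjusted p = 0.0617, limma), -0.33 for HOXD11 (adjusted p = 0.147), 0.55 for HOXD12 (adjusted p = 0.305) and 1.02 for HOXD13, and no trend was tested. HOXD10 was highest in treated replicate 2, at 72.8 TPM, where replicates 1, 3 and 4 read 40.5, 23.7 and 20.7 TPM. HOXD12 was lowest in that library, at 1.82 TPM, where the other 3 read 7.67, 8.29 and 8.11 TPM. Without it, HOXD10 (-1.34, adjusted p = 0.00175) and HOXD11 (-0.45, adjusted p = 0.0234) were called lower and HOXD12 higher (0.97, adjusted p = 0.00274). HOXD10 and HOXD11 share 18.2% and 21.4% of their exonic bases with each other, so part of their reads could be assigned to either. HOXD1, an anterior member at the other end, rose by 0.85 on the log2 scale in H146, a call lost without untreated replicate 1 or 3 (adjusted p = 0.0581 and 0.0527 for HOXD1). It shares 60.1% of its exonic bases with other genes, mostly on the opposite strand, so its level is uncertain. HOXD3 and HOXD4 stayed under the filter in both lines.

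**Figure D3:**
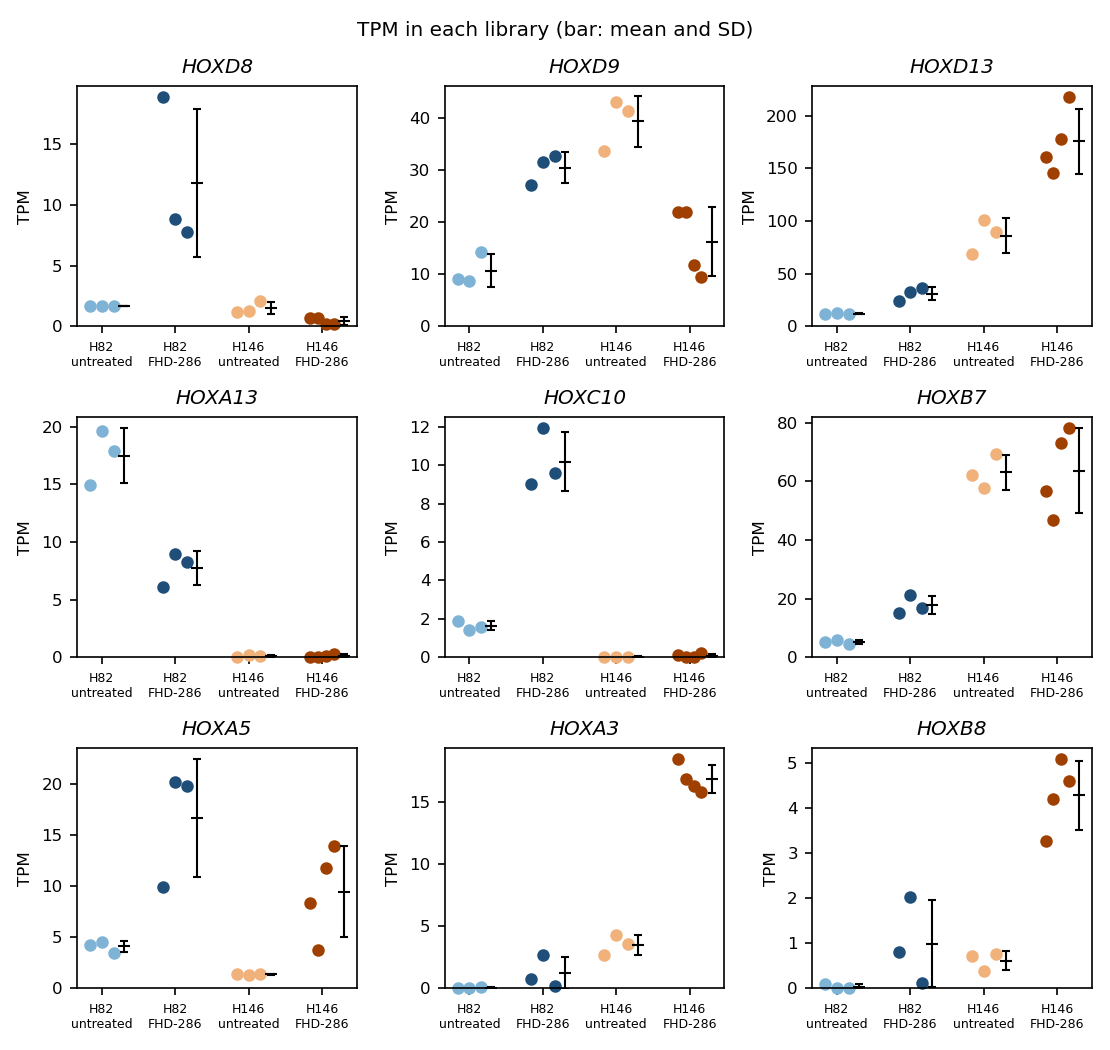
TPM in each library (points) of 9 HOX genes in the 4 groups, with the mean and SD beside them. HOXD9 rises from 10.7 to 30.5 TPM in H82 and falls from 39.3 to 16.2 TPM in H146, while HOXA13, HOXC10 and HOXB7 change in H82 and HOXA3 and HOXB8 are called in H146.

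On the log2(TPM + 1) scale HOXD8 had the largest HOX rise called in either line, and HOXB2 had a larger one with a pseudocount of 0.1. The promoters of HOXD8 and of HOXA13, the largest fall called among members with a RefSeq promoter entry, are shown with that of HOXD13, which was added because it rose in both lines. HOXC10 and HOXD9, the next largest rise and the largest fall on the log2(TPM + 1) scale, had no entry. Each line gives the 250 bases before the RefSeq start site (GRCh38.p14), read 5′ to 3′ on the gene's strand, with capitals for matches on either strand to the HOX and PBX pattern TGATNNAT, the GC box GGGCGG, the CCAAT box and the TATA box pattern TATAAA. HOXD8 is at chr2:176129455-176129704 (plus), HOXD13 at chr2:176092471-176092720 (plus) and HOXA13 at chr7:27200092-27200341 (minus).
HOXD8: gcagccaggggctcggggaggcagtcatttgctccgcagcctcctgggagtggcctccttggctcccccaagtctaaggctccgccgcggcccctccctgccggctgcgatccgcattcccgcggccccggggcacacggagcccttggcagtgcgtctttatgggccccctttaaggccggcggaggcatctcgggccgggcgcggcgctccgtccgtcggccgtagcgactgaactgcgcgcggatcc
HOXD13: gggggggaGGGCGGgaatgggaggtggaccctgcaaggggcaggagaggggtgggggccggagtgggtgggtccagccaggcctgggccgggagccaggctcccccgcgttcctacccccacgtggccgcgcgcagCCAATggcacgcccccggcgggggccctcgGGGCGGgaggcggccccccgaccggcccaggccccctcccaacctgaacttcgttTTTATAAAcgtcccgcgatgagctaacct
HOXA13: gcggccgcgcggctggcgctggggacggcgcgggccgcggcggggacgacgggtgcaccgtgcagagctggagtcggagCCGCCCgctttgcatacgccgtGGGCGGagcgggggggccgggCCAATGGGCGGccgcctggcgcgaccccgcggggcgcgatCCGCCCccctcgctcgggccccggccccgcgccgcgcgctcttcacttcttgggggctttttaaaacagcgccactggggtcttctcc

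The HOXD8 window held none of these letter patterns. The HOXD13 window held 2 GC boxes, 1 CCAAT box and a TATA box read on both strands, whose matches overlap, the sense one starting 27 bases before the start site. In the HOXA13 window there were 4 GC boxes, 2 of them read on the other strand, and 1 CCAAT box next to one of them. All 3 windows were rich in G and C (72.4%, 74.0% and 78.0%), where the median was 58.8% over the HOX windows and 58.0% over all windows. Of the 27 promoter windows of 20 HOX genes, 18 held CCAAT (66.7%, against 32.0% of 35116 windows of all genes), 13 held GGGCGG (48.1% against 42.6%), 5 held TATAAA (18.5% against 10.7%) and 3 held TGATNNAT (11.1% against 6.47%). HOXA3 alone accounts for 7 of the 27 windows. A match is a description of letters, and binding was not measured here.

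Of the HOXA genes, 7 of 9 tested were higher in H146, where 32.5% of all genes tested were. In H82, 2 of 6 were higher and 1 was lower, where 13.1% and 45.5% of all genes tested were. HOXA3 (chr7:27106184-27152583, minus strand), needed for the thymus and parathyroid, went from 2.71, 4.32 and 3.57 TPM in untreated H146 to 18.5, 16.9, 16.4 and 15.9 TPM in treated H146. This log2 fold change of 1.99 (SE 0.16) had the lowest adjusted p of any HOX gene in that line (6.42e-05, limma). The groups were separate, with a narrow spread among treated libraries. HOXA2, HOXA9 and HOXA10 were also higher, by 0.68, 0.96 and 0.78 on the log2 scale. HOXA3 shares 19.8% of its exonic bases with other genes, among them HOXA-AS2, which rose in H146 as well.

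HOXA5 (chr7:27141052-27143681, minus strand), needed for lung and airway development, was the largest HOX rise in H146 on the log2(TPM + 1) scale. With a pseudocount of 0.1 its value was 2.55, under those of HOXA6 (2.73) and HOXB8 (2.65). HOXA5 was at 1.36, 1.29 and 1.43 TPM untreated and 8.37, 3.74, 11.8 and 13.9 TPM treated (log2 fold change 2.02, SE 0.36, adjusted p = 0.00256, limma). H82 gave 4.27, 4.56 and 3.48 TPM untreated and 9.94, 20.2 and 19.8 TPM treated (log2 fold change 1.73, SE 0.29, adjusted p = 0.00226). Treated libraries were above untreated ones in each line, with the lowest treated value in replicate 2 of H146 and replicate 1 of H82. Its neighbor HOXA6 went from 0.225, 0.896 and 0.408 TPM to 4.02, 1.16, 4.76 and 6.86 TPM in H146 (log2 fold change 1.66, SE 0.41, adjusted p = 0.0106), where it passed the filter only through treated libraries. In H82, HOXA6 was at 1.04, 0 and 2.07 TPM untreated and 2.42, 4.97 and 3.08 TPM treated (log2 fold change 1.24, SE 0.44, adjusted p = 0.0434), a call that was lost without treated replicate 2 (adjusted p = 0.124), treated replicate 3 (0.0831), untreated replicate 1 (0.0862) or untreated replicate 2 (0.0995), and with a pseudocount of 0.1 or no filter. HOXA6 shares 40.1% of its exonic bases with other genes, mostly the antisense HOXA-AS3.

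The 5′ end of HOXA moved the other way in H82. HOXA13 (chr7:27193503-27200091, minus strand), a factor of the distal limb and the urogenital tract, was the most abundant HOXA member of untreated H82. It fell from 15.0, 19.6 and 17.9 TPM to 6.13, 8.95 and 8.23 TPM, with separate groups (log2 fold change -1.08, SE 0.20, adjusted p = 0.00321, limma). Quantile normalization gave -0.53 (adjusted p = 0.0503), just past the threshold. HOTTIP, a noncoding RNA transcribed from beside HOXA13, fell in the same libraries by 1.27 on the log2 scale (SE 0.21, adjusted p = 0.00208). In H146, HOXA13 was at or under 0.315 TPM in every library. Between these ends, HOXA7, HOXA10 and HOXA11 were not called in H82, with log2 fold changes of 0.00, 0.78 and 0.31, but HOXA10 was called without treated replicate 1 (1.15), with median-of-ratios scaling (1.21) and with quantile normalization (1.48). HOXA11 was called without treated replicate 1 (0.72, adjusted p = 0.00849) and with quantile normalization (0.97, adjusted p = 0.0388), and HOXA7 without treated replicate 1 (0.52, adjusted p = 0.0457).

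HOXA10, a factor of the uterus and the most abundant HOXA member of H146 over all its libraries, was at 7.76, 11.2 and 8.69 TPM untreated and 16.03, 12.96, 18.7 and 18.5 TPM treated in that line (log2 fold change 0.78, SE 0.18, adjusted p = 0.00823). HOXA7 in H146 was lowest in treated replicate 2. It was at 11.0, 3.93, 20.5 and 21.5 TPM in treated replicates 1 to 4 against 5.21 to 5.68 TPM untreated. The log2 fold change of HOXA7 was 1.0 (adjusted p = 0.115), and 1.47 without replicate 2 (adjusted p = 0.00121). HOXA11, not called in H146 either (0.55), was called without that library (0.68, adjusted p = 0.0234). Since HOXA7 shares 62.5% of its exonic bases with HOXA-AS3, its level is uncertain.

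The HOXB genes called differed between the lines, where 7 of the 10 were under the filter in H82. Among those 7 were HOXB4, HOXB5, HOXB6 and HOXB8, called in H146. In H82 each of these also had every treated library above every untreated one. Their treatment effects were not called different between the lines (adjusted p from 0.0761 to 0.995, limma). HOXB7 (chr17:48607232-48633572, minus strand), the most abundant HOXB member of both lines, went from 5.15, 5.94 and 4.42 TPM to 15.2, 21.2 and 16.9 TPM in H82 (log2 fold change 1.6, SE 0.19, adjusted p = 0.00066, limma). In H146 it was at 62.3, 57.7 and 69.5 TPM untreated and 56.7, 46.7, 73.1 and 78.3 TPM treated, with overlapping groups (log2 fold change -0.01, SE 0.19, adjusted p = 0.959). HOXB8, a thoracic spinal cord and myeloid factor, passed the filter in H146 only through treated libraries: 0.706, 0.374 and 0.766 TPM became 3.27, 4.21, 5.07 and 4.59 TPM (log2 fold change 1.71, SE 0.19). HOXB4, known in blood stem cells, went from 3.67, 4.47 and 3.76 TPM to 10.4, 8.19, 9.68 and 10.0 TPM there (log2 fold change 1.09, SE 0.15, adjusted p = 0.000804). Each of these called rises had treated values wholly above the untreated ones.

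In H146, HOXB5 and HOXB6 were higher too, by 0.65 and 1.03 on the log2 scale, and the HOXB5 call was lost under both other scalings, with no filter and without any 1 of 5 of its 7 libraries (all but treated replicates 1 and 2, adjusted p for HOXB5 from 0.0668 to 0.0929). HOXB2, HOXB3 and HOXB9 were not called there (-0.11, -0.14 and -0.14). HOXB13 (chr17:48724763-48728750, minus strand), a prostate and hindgut factor, was called in H82: 0.332, 0.224 and 0.177 TPM became 2.34, 1.28 and 1.73 TPM (log2 fold change 1.15, SE 0.21, adjusted p = 0.0032), with no untreated library at the filter's level. It did not exceed 0.0928 TPM in H146.

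HOXB2, a hindbrain gene, was at 0.246, 0 and 0 TPM in untreated H82 and at 1.74, 9.80 and 1.53 TPM in treated H82 (log2 fold change 1.97, SE 0.55, adjusted p = 0.0182, limma). Treated replicate 2 was far above the other 2 treated libraries, which were themselves above all untreated ones. Without replicate 2 the log2 fold change of HOXB2 was 1.29 (adjusted p = 0.00623), and the call was lost without untreated replicate 2 or 3 (adjusted p = 0.0638 and 0.0565). The level of 9.80 TPM in that library was 135% of the untreated H146 mean of 7.28 TPM, where its sum over H146 marker genes was 4.29% of the H146 sum.

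Of the 7 HOXC genes tested in H82, the 4 posterior ones were called higher and the 3 more anterior ones, HOXC4, HOXC6 and HOXC8, were not called. Of all genes tested in that line, 13.1% were higher. HOXC10 (chr12:53985065-53990279, plus strand), a factor of lumbar motor neurons, went from 1.89, 1.45 and 1.58 TPM to 9.02, 11.9 and 9.58 TPM (log2 fold change 2.08, SE 0.20, adjusted p = 0.000293, limma). HOXC13, needed for hair and nails, went from 1.42, 0.535 and 0.591 TPM to 5.67, 2.81 and 3.16 TPM (log2 fold change 1.39, SE 0.30, adjusted p = 0.00683). HOXC9, a thoracic motor neuron factor, went from 5.82, 6.02 and 8.90 TPM to 9.25, 20.9 and 20.9 TPM (log2 fold change 1.12, SE 0.34, adjusted p = 0.0248). All 3 had separate groups, and that of HOXC9 was narrow, since the lowest treated value lay just above the highest untreated one. Without treated replicate 2 or 3 the HOXC9 value was 0.94 (adjusted p = 0.0767 and 0.078), and the call was also lost without untreated replicate 1 or 2. HOXC11 was higher by 0.87 on the log2 scale, a call lost without untreated replicate 2 or 3 or treated replicate 3 (adjusted p for HOXC11 from 0.0521 to 0.07).

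HOXC4, the most abundant HOX transcript of untreated H82, was at 22.1, 21.7 and 22.4 TPM untreated and 16.9, 19.0 and 21.3 TPM treated, each treated library below each untreated one. The log2 fold change of HOXC4 was -0.20 (SE 0.15, adjusted p = 0.263) as deposited and turned to 0.27 with median-of-ratios scaling and 0.20 with quantile normalization, none of them called. In H146, HOXC4 was the highest HOXC gene and did not exceed 0.363 TPM. HOXC6 and HOXC8 were not called in H82 either (0.23 and 0.57), and HOXC8 ranged from 9.23 to 35.2 TPM over the treated libraries. HOXC8 was called higher without treated replicate 1 (1.15, adjusted p = 0.000383), and HOXC6 with median-of-ratios scaling (0.66, adjusted p = 0.0236) and quantile normalization (1.05, adjusted p = 0.00481). HOXC4 and HOXC6 share 17.5% and 16.1% of their exonic bases with other genes on the same strand, each other among them, so their split is uncertain.

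Summed over the cluster, HOXD rose from 24.6 ± 3.22 TPM to 77.4 ± 4.28 TPM (SD, n = 3 each) in H82, a ratio of means of 3.15. HOXC went from 52.6 ± 1.14 to 86.2 ± 22.0 TPM and HOXB from 5.57 ± 0.877 to 33.6 ± 17.3 TPM, both with treated above untreated in every library, and HOXA, at 42.1 ± 3.29 and 60.4 ± 22.4 TPM, overlapped. The log2 ratio of HOXB in H82 was 2.59, and 2.09 without treated replicate 2. In H146 the HOXA sum went from 23.8 ± 3.21 TPM (n = 3) to 72.8 ± 18.4 TPM (n = 4), a ratio of 3.05, with no overlap. HOXB (120.4 ± 3.46 and 140.4 ± 27.6 TPM) and HOXD (253 ± 30.3 and 283 ± 18.4 TPM) overlapped in H146, and the sign of their log2 ratios, 0.22 and 0.16, turned with median-of-ratios scaling. Over all members, the sum was 125 ± 5.00 and 258 ± 58.7 TPM in H82, and 398 ± 31.9 and 497 ± 45.6 TPM in H146, where the log2 ratio of 0.32 became -0.00 (slightly below 0) with median-of-ratios scaling. The HOXC sum in H146 was 0.152 ± 0.0540 TPM untreated and 0.885 ± 0.276 TPM treated.

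**Figure D4:**
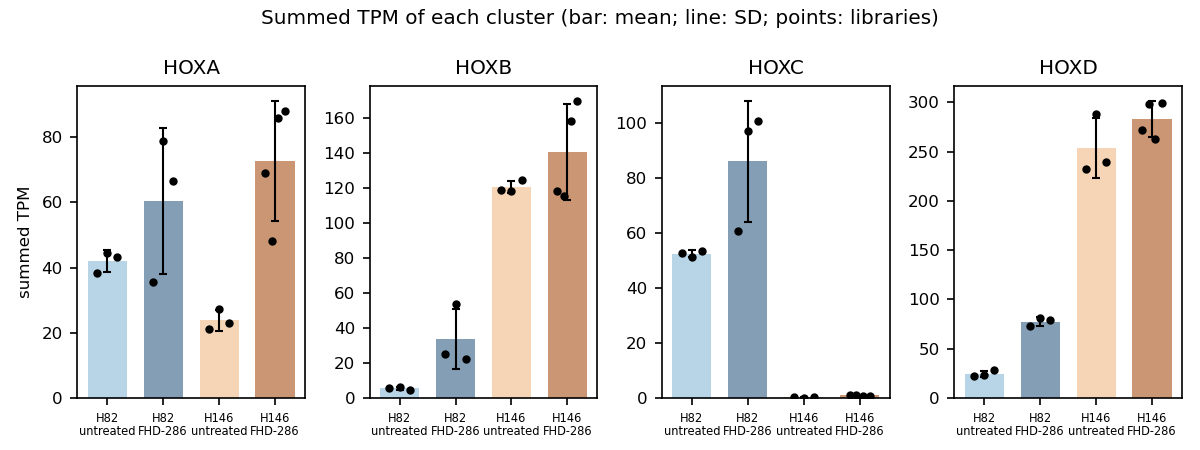
Summed TPM of the members of each HOX cluster (vertical axis, from 0, with its own scale per panel) in the 4 groups; bars are means, lines are SD and points are libraries. HOXD rises in H82 from 24.6 to 77.4 TPM and HOXA rises in H146 from 23.8 to 72.8 TPM.

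By position, paralog groups 1 to 3 summed to 0.373 ± 0.317 TPM in untreated H82 and 9.69 ± 9.01 TPM in treated H82. The treated libraries read 5.95, 19.97 and 3.16 TPM, and the mean without replicate 2 was 4.55 TPM (log2 ratio 3.61 in place of 4.70). Groups 4 to 8 went from 58.3 ± 0.946 to 112 ± 27.1 TPM and groups 9 to 13 from 66.1 ± 5.40 to 136 ± 26.0 TPM in the same line. In H146 groups 1 to 3 went from 30.3 ± 3.15 to 49.9 ± 1.93 TPM, with treated above untreated in every library. Groups 4 to 8 (91.6 ± 6.63 and 134 ± 35.3 TPM) and groups 9 to 13 (276 ± 32.7 and 313 ± 20.6 TPM) overlapped there.

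Most members under the filter in H82 were at or near 0 before treatment and above it afterwards. Of the 20, 18 had a TPM above 0 in at least 3 libraries, and in 15 of these every treated library was above every untreated library, where 11.7% of 9490 genes of all kinds under the filter behaved so. None was wholly below, against 33.5% of those genes. Each of the 15 had an exact permutation p of 0.1 (two-sided, unadjusted), the smallest that 3 libraries against 3 can give. HOXB1 was at 0 in every H82 library, and HOXD4 was above 0 in only 2. HOXA9, HOXC5 and HOXD3 overlapped.

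After treatment, 8 of these low members had a mean of at least 1 TPM in H82, among them HOXA3, HOXB4, HOXB5, HOXB9, HOXC12, HOXD10 and HOXD11. Without treated replicate 2, 4 of them did, and HOXA3, HOXB4, HOXB5 and HOXD11 had means under 1 TPM. HOXB5, a trunk and gut factor, was at 0 in all untreated libraries and at 0.527, 9.18 and 0.312 TPM in treated ones. HOXB9, a thoracic patterning gene, was at 0, 0.1005 and 0 TPM untreated and at 3.43, 4.52 and 0.544 TPM treated. These 2 were chosen after their values were seen, and replicate 2 was highest in both. HOXC12, which was at 0 in every H146 library, went from 0, 0 and 0.123 TPM to 1.90, 0.874 and 1.07 TPM, and there replicate 1 was highest.

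The transcripts of H146 marker genes found in treated H82 were set beside 11 of the HOX genes reported here. These were under 0.35 TPM in every untreated H82 library and at 1 TPM or more in every untreated H146 library. Both sets were picked for low values in untreated H82, so that low level was fixed by the choice. Where the transcripts came from was not tested. In 10 of the 11, replicate 2 held the highest treated H82 value, and 8 followed the order of replicates 2, 1 and 3 that the marker sums had. As a share of the untreated H146 mean, the replicate 2 values ran from 3.36% for HOXD10 to 135% for HOXB2, with a median of 16.2%, against 4.29% for the marker sum. HOXB2 and HOXB5 were above the H146 level in that library (135% and 104%), while HOXD10 at 3.36% and HOXD1 at 6.89% were near the marker share. In replicates 1 and 3 the medians were 5.98% and 4.22%, against marker shares of 0.885% and 0.428%.

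**Figure D5:**
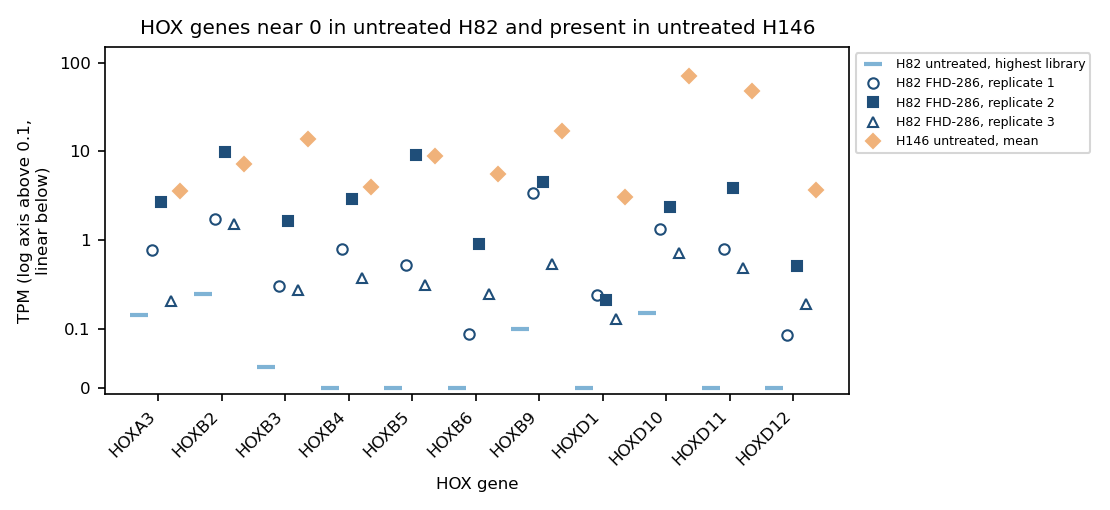
TPM (vertical axis, log above 0.1 and linear below) of 11 HOX genes under 0.35 TPM in untreated H82 and at 1 TPM or more in untreated H146: the highest untreated H82 library (dash), the 3 treated H82 libraries (circle, square, triangle) and the mean of untreated H146 (diamond). Replicate 2 (filled square) is the highest treated H82 library in 10 of the 11.

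In H146, 13 of the 15 members under the filter had a TPM above 0 in at least 3 libraries. Every treated library was above every untreated library in 5 of them (HOXA4, HOXC4, HOXC6, HOXC8 and HOXC9), where 19% of 12239 genes under the filter behaved so, and below in 1 (HOXD4), where 6.14% did. HOXD4, an anterior trunk gene, was at 0.725, 0.328 and 0.537 TPM untreated and 0.300, 0.291, 0.0733 and 0.137 TPM treated (exact permutation p = 0.0286, two-sided, unadjusted, the smallest p in this set). HOXC8, where treated values were the higher ones, had the same p. HOXC12 was at 0 in every library and HOXB13 above 0 in only 2. In the same treated libraries the 181 genes marking H82 reached 0.354% to 0.695% of their H82 sum.

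The effect of treatment was then compared between the lines in one model of all 13 libraries, as the H82 effect minus the H146 effect. Of 33 HOX genes tested, 12 had the larger value in H82 and 3 in H146, where 13.3% and 46% of 24374 genes did. The largest differences were those of HOXD8 (2.96, SE 0.40, adjusted p = 6.56e-05, limma) and HOXD9 (2.77, SE 0.40, adjusted p = 0.000111), the genes with opposite directions. HOXB7 (1.61), HOXC10 (2.00), HOXD10 (2.11) and HOXD11 (1.56) were also larger in H82. HOXA9 (-1.38), HOXA13 (-1.12) and HOXA3 (-1.09) had the lower value in H82. HOXA13, HOXB13 and the HOXC genes were under the filter in H146, and HOXA3, HOXA9, HOXB9, HOXD10 and HOXD11 in H82. The differences of HOXA13 and HOXC10 were near their changes within H82 (-1.08 and 2.08). They largely restate the H82 change of a gene near 0 in H146. The value of HOXA3 turned to 0.33 with a pseudocount of 0.1 and was then not called. The HOXA3 call was also lost under both other scalings (adjusted p = 0.279 and 0.657), with no filter (0.0749) and in 11 of 13 fits that left out a library, while without treated H82 replicate 2 it was -1.53. With quantile normalization the calls of HOXA9 (adjusted p = 0.288) and HOXA13 (0.125) were lost, that of HOXA13 also with a pseudocount of 0.1 (0.0695). Without treated H82 replicate 2 the differences were 1.40 for HOXB2, 1.48 for HOXB9, 1.86 for HOXD10 and 1.04 for HOXD11. For HOXD13 the difference was 0.26 (SE 0.26, adjusted p = 0.408), and for HOXA5 it was -0.29 (SE 0.51, adjusted p = 0.641), so a difference in these was not detected.

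The TALE cofactors (PBX, MEIS and PKNOX) had a median log2 fold change of -0.55 in H82 and 0.67 in H146, where all genes tested had -0.56 and 0.25. In H82, none of the 9 tested was higher and 4 were lower (44.4%, against 45.5% of all genes), with MEIS3 the largest fall (-1.45, adjusted p = 0.0191, limma). In H146, 5 of 8 were higher and 2 lower, against 32.5% and 15.5% of all genes. MEIS1, which works with HOXA9 in blood cells and leukemia, was the largest rise (1.25, adjusted p = 0.0188), from 5.32 ± 1.02 TPM (SD, n = 3) to 15.2 ± 7.36 TPM (n = 4). PBX4 was the largest fall (-2.0, adjusted p = 0.000104).

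Genes of retinoic acid signaling, a known inducer of 3′ HOX genes, were measured beside them. In H82, 6 of the 10 tested members of the CDX and retinoic acid list were higher and 2 lower, and in H146 5 of 11 were higher and 2 lower. Among the 6 in H82, ALDH1A1, RXRA and DHRS3 passed the filter only through treated libraries. Their untreated H82 levels did not exceed 0.745 TPM. Of all genes tested, 13.1% were higher and 45.5% lower in H82, and 32.5% and 15.5% in H146. ALDH1A1, a retinoic acid synthesis enzyme, was the largest rise in H82 (3.88, adjusted p = 0.00171, limma), but its level of 14.9, 35.9 and 4.88 TPM in treated replicates 1 to 3 followed the order of the H146 marker sums, and it was at 398 to 437 TPM in untreated H146. ALDH1A1 met the rule for those marker genes and is itself part of the sums, so the shared order is partly built in. CRABP2, a retinoic acid binding protein, was the largest fall in H82 (-2.24, adjusted p = 0.000416), from 789 ± 63.0 to 172 ± 55.7 TPM. CYP26A1, which degrades retinoic acid and is itself a retinoic acid target, was the largest rise in H146 (3.52, adjusted p = 6.93e-05), from 0.969 ± 0.241 TPM to 22.7 ± 8.09 TPM, and STRA6, a retinol transporter, the largest fall (-1.02, adjusted p = 0.00263). CDX1 and CDX4, homeobox regulators of HOX genes, were at 0 in every library, and CDX2 did not exceed 0.0260 TPM.

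The chromatin regulators of HOX genes had a median log2 fold change of -0.54 in H82 and 0.41 in H146, beside -0.56 and 0.25 over all genes tested. Of 23 tested, 3 were higher and 10 lower (43.5%) in H82, beside 13.1% and 45.5% of all genes. In H146, 10 were higher (43.5%) and 2 lower (8.7%), against 32.5% and 15.5% of all genes. ASH1L, a Trithorax group histone methyltransferase, was the largest fall in H82 (-1.86, adjusted p = 0.000703, limma), from 36.4 ± 1.84 to 9.62 ± 2.94 TPM, and RING1, a Polycomb ubiquitin ligase, the largest rise (0.76, adjusted p = 0.00681). In H146 the Polycomb protein BMI1 was the largest rise (1.69, adjusted p = 0.000631), from 14.7 ± 1.09 to 51.4 ± 15.5 TPM.

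Of the noncoding RNAs of the clusters, 3 could be tested in H82 and 6 in H146. HOTTIP was the only one called in H82 (33.3% lower, where 45.5% of all genes tested were). In H146 HOXD-AS2 fell by 1.18 on the log2 scale (adjusted p = 0.00924, limma), and HOXA-AS2 (0.74) and the gene entry MIR10B (1.41, adjusted p = 0.00115) were higher. These were 33.3% higher and 16.7% lower, where 32.5% and 15.5% of all genes tested were. Both higher entries passed the filter only through treated libraries, with HOXA-AS2 at 0.658 to 0.876 TPM untreated and MIR10B at 0.910 to 2.00 TPM treated. MIR10B lies between HOXD4 and HOXD8 and was listed at 0 in every untreated H146 library; these libraries did not measure mature microRNA.

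Genes that flank the clusters did not share one direction. Of the 10 tested in H82, 2 were higher and 3 lower, and of the 9 in H146, 2 were higher and 2 lower. Beside them, 13.1% of all genes tested were higher and 45.5% lower in H82, and 32.5% and 15.5% in H146. A difference between the flanking genes and these shares was not tested. In H82, HIBADH (0.55) beside HOXA and SMUG1 (0.50) beside HOXC were higher, CBX5 (-1.16) beside HOXC, KIAA1715 (-0.83) beside HOXD and CALCOCO2 (-0.67) beside HOXB were lower, and SKAP2 (0.99), PRAC1 (-0.05), TTLL6 (-0.39), CALCOCO1 (-0.04) and MTX2 (0.05) were not called. In H146, SMUG1 (1.10) and CBX5 (0.75) were higher, SKAP1 (-1.61) beside HOXB and MTX2 (-0.48) beside HOXD were lower, and SKAP2 (0.20), HIBADH (-0.05), CALCOCO2 (-0.14), CALCOCO1 (0.16) and KIAA1715 (0.07) were not called. On either side of HOXD, neither KIAA1715 nor MTX2 was called higher in H82, where HOXD8, HOXD9 and HOXD13 were.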

How the data were processed

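RNA-seq of 13 libraries was used. The submitters' processing notes name Trim Galore 0.4.4, STAR, DESeq2 and the build hg38, and the study's methods name GENCODE 28. The deposited values are TPM per gene, made by the authors, in 1 table per line, each library summing to 1000000; TPM keeps no read depth, so no counting interval is given. Strandedness and the counting of overlapping genes are not given in the sources used here; exon overlaps and coordinates were computed from GENCODE 44, a later release on the same build. HOX members and gene lists were chosen with earlier results of these data known. From the TPM, log2(TPM + 1) of genes with at least 1 TPM in 3 libraries was fitted with limma 3.58.1 in R 4.3.3, within each line and, for the difference between lines, over all libraries, and p-values were adjusted by Benjamini-Hochberg across every gene in the fit. A log2 fold change on this scale understates the change of low genes. Members under the filter with a TPM above 0 in at least 3 libraries were compared by exact permutation of the library labels (two-sided, means on the log2 scale), where the smallest p is 0.1 for 3 libraries against 3. Of 23 called HOX genes, the 16 with the largest change, and the most abundant member of each cluster and line, were given in full; 1 HOX gene and 1 gene of a list enter the counts and sums but are not reported here. The alternatives tried were a pseudocount of 0.1, no filter, median-of-ratios scaling, quantile normalization, leaving out each library, and a replicate block; the fits were tested on simulated data. Of the list names, 10 noncoding RNAs and 1 flanking gene were not matched by symbol (LNPK is in the tables as KIAA1715). Promoters came from RefSeq (GRCh38.p14), with an entry for 20 of the 39 members. Python 3.11.15, pandas 2.3.3 and matplotlib 3.10.9 made the other values and the plots.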

Additional observations from a re-analysis of the deposited data

Results flagged for a closer look

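The effect of FHD-286 differed between the lines, by the test of the difference itself (H82 effect minus H146 effect, limma, adjusted p under 0.05), in 15 HOX genes. The difference was positive for HOXD8 (2.96), HOXD9 (2.77), HOXD10 (2.11), HOXB2 (2.08), HOXC10 (2.00), HOXB9 (1.84), HOXB7 (1.61), HOXD11 (1.56), HOXC13 (1.37), HOXB13 (1.09), HOXC9 (1.01) and HOXC11 (0.82), and negative for HOXA9 (-1.38), HOXA13 (-1.12) and HOXA3 (-1.09). HOXA13, HOXB13 and the HOXC genes of this set were under the filter in H146, and HOXA3, HOXA9, HOXB9, HOXD10 and HOXD11 were under it in H82.

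In the group of 4 treated H146 libraries, replicate 2 stood apart from the others by Dixon's test at its 95% critical value for 2 of the 23 HOX genes that reached 1 TPM there. It was the highest for HOXB2 (9.57 TPM) and the lowest for HOXD12 (1.82 TPM). Chance marks about 1 in 20 such groups.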

How the results depend on the processing

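Within the lines, the direction of every called HOX gene was the same under each alternative. In H82, 8 of 13 calls, and in H146 11 of 15, were kept under both scalings, the smaller pseudocount, no filter and every left-out library. The number called higher was 12 in H82 (8 to 16 over left-out libraries; lowest without untreated replicate 2, where it was 8) and 13 in H146 (11 to 16). The number lower was 1 in H82 and 0 with quantile normalization; in H146 it was 2, 5 with median of ratios and 1 to 4 over left-out libraries (4 without treated replicate 2, 1 without treated replicate 3 or untreated replicate 3). Between the lines, 3 had the lower value in H82, 0 with quantile normalization and 2 to 5 over left-out libraries (5 without treated H82 replicate 2). HOXA3 turned to 0.33 there with a pseudocount of 0.1. The cause of these changes was not tested.

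Median-of-ratios scaling moved the log2 ratios of the sums in H82 to 1.0 for HOXA, 1.20 for HOXC, 2.14 for HOXD, 1.43 for groups 4 to 8, 1.52 for groups 9 to 13 and 1.53 for all members. In H146 it gave -0.11 for HOXB, -0.16 for HOXD, 0.40 for groups 1 to 3, 0.22 for groups 4 to 8, -0.14 for groups 9 to 13 and -0.0011 for all members.

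Numbers shared by treated and untreated libraries did not pair them (correlation of deviations -0.111 to 0.027 for same-numbered libraries). A replicate block gave 11 higher and 1 lower in H82, 11 and 2 in H146, and 12 and 2 between the lines. The H82 call of HOXA6 and the H146 calls of HOXA2, HOXB5 and HOXD8 were lost under it. TPM holds no depth, so values under 1 TPM carry an unknown counting error.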
